A study of Mus musculus with 6 samples.

Results

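*Adam23* and 9 other genes of the ADAM family were described in RNA of liver macrophages from mice fed a high-fat diet (HFD). The family members were *Adam8*, *Adam9*, *Adam10*, *Adam12*, *Adam15*, *Adam17*, *Adam19*, *Adam22*, *Adam23* and *Adam28*, which are 10 of the 49315 genes in the count tables. *Adam23* was picked because its level was seen to be higher in the macrophages of mutant mice, so its difference between genotypes is given as a description without a test. The other 9 genes were taken as relatives of *Adam23*, and 8 of them had enough reads to be tested. Of the 10 genes, 9 passed the filter on low counts, and *Adam28* did not.

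The study compared WT with *Lpcat3* KOMac mice on the C57BL/6N background. *Lpcat3* encodes a lysophospholipid acyltransferase that places polyunsaturated fatty acids such as arachidonic acid in membrane phospholipids. *Lpcat3* KOMac mice carried floxed *Lpcat3* on both alleles and 1 copy of LysM-Cre, and their WT littermates carried the same floxed alleles without Cre. The Cre is driven from the *Lyz2* locus, which is active in monocytes and neutrophils as well as in macrophages, and it replaces 1 *Lyz2* copy. All mice had received an HFD with 60% fat for 16 weeks before liver cells carrying the macrophage surface protein F4/80 were selected on magnetic beads. Such a selection takes all F4/80 cells, whether resident or recruited, and can carry over other liver cells. RNA-seq gave 1 library from each of 3 mice per genotype.

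ADAM proteins are membrane-anchored proteins with a prodomain, a metalloprotease domain, a disintegrin domain and a cytoplasmic tail. The active members are sheddases, which cut the extracellular part of other membrane proteins and so release cytokines, growth factors and receptors. Their catalysis needs a zinc ion held by the histidines of a short motif in the metalloprotease domain. *Adam11*, *Adam22* and *Adam23* encode relatives that lack this motif, and they are best known in neurons, where they bind secreted LGI proteins and integrins.

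The difference between active and inactive members can be read from their coding sequences, so the stretch at the zinc-binding site is shown for 6 of them. Sequences were taken from GENCODE M21 on GRCm38 as 33 coding bases, or 11 codons, written in the sense of the gene. Capitals mark those of the 5 motif codons that were present, which encode histidine, glutamate, histidine, glycine and histidine in that order. *Adam10* and *Adam17* are shown as the main sheddases of macrophages, *Adam9* and *Adam8* as further active members, and *Adam22* and *Adam23* as the members without the motif.
Adam10: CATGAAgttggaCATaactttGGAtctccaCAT
Adam17: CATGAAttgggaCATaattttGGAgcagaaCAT
Adam9: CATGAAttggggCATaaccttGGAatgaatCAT
Adam8: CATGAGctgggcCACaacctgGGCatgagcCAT
Adam22: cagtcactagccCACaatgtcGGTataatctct
Adam23: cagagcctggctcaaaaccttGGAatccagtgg

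In *Adam23* only the glycine codon stood in the aligned stretch, which is 1 of the 5 motif codons. *Adam22* held 2 of the 5, a histidine and the glycine. The other 8 members, *Adam12*, *Adam15*, *Adam19* and *Adam28* among them, held all 5. The stretch of *Adam23* lies in exon 13 at chr1:63547763-63547795 on the plus strand, and that of *Adam22* in exon 13 at chr5:8143064-8143096 on the minus strand. The stretch of *Adam8* lies in exon 11 at chr7:139987893-139987925, that of *Adam9* in exon 11 at chr8:24990326-24990358, and that of *Adam17* in exon 12 at chr12:21336732-21336764, all on the minus strand. In *Adam10* it spans 2 exons from exon 9, with an intron between, at chr9:70754296-70761585 on the plus strand.

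Over the whole coding sequence *Adam23* was also closest to *Adam22*. The translated sequences were identical at 48.95% of 760 aligned codons, against 32.96% for *Adam19*, 32.82% for *Adam12* and 30.65% for *Adam9*. The lowest identities of *Adam23* were 22.6% to *Adam17* and 22.32% to *Adam10*. The *Adam23* gene, ENSMUSG00000025964, runs on the plus strand of chromosome 1 from base 63445891 to 63596276 of GRCm38, with 17907 exonic bases in 29 blocks and no exon shared with another annotated gene. The 10 members lie on 9 different chromosomes, with *Adam8* and *Adam12* both on chromosome 7.

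The *Lpcat3* level checked the labels. It was 85.0, 66.2 and 61.2 CPM (read counts scaled to library size with the TMM factors of edgeR) in WT mice 1, 2 and 3, and 19.6, 33.3 and 19.4 CPM in *Lpcat3* KOMac mice 1, 2 and 3. All 3 mutant libraries lay below all 3 WT libraries, and transcript remained in each. The libraries held between 44954224 and 71392812 counts. Summed transcripts of 10 hepatocyte genes ranged from 2409 to 28030 CPM and were highest in WT mouse 1 and *Lpcat3* KOMac mouse 2 (16700 CPM), so that these libraries held the most hepatocyte RNA. Kupffer cell and macrophage markers were abundant in all libraries, at 33590 to 57750 CPM over 17 genes.

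*Adam23*, the member picked for its contrast, was about 2.54 times as high in *Lpcat3* KOMac libraries as in WT libraries. Its level was 20.98, 16.9 and 25.2 CPM in WT mice 1, 2 and 3, from 1363, 849 and 1154 counts. In *Lpcat3* KOMac mice 1, 2 and 3 it was 57.1, 48.5 and 55.0 CPM, from 3314, 2514 and 2590 counts. The lowest mutant library was thus above the highest WT library, and the gap between the genotypes was wider than the range within either. The means were 21.1 ± 4.14 CPM in WT and 53.5 ± 4.48 CPM in *Lpcat3* KOMac mice (SD, n = 3 each). The log2 fold change was 1.35 with a standard error (SE) of 0.17 and a 95% confidence interval from 0.94 to 1.76. These values restate the reason for the choice of the gene, and 2.29% of the 16134 genes tested were higher in all mutant libraries than in all WT libraries.

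**Figure D1:**
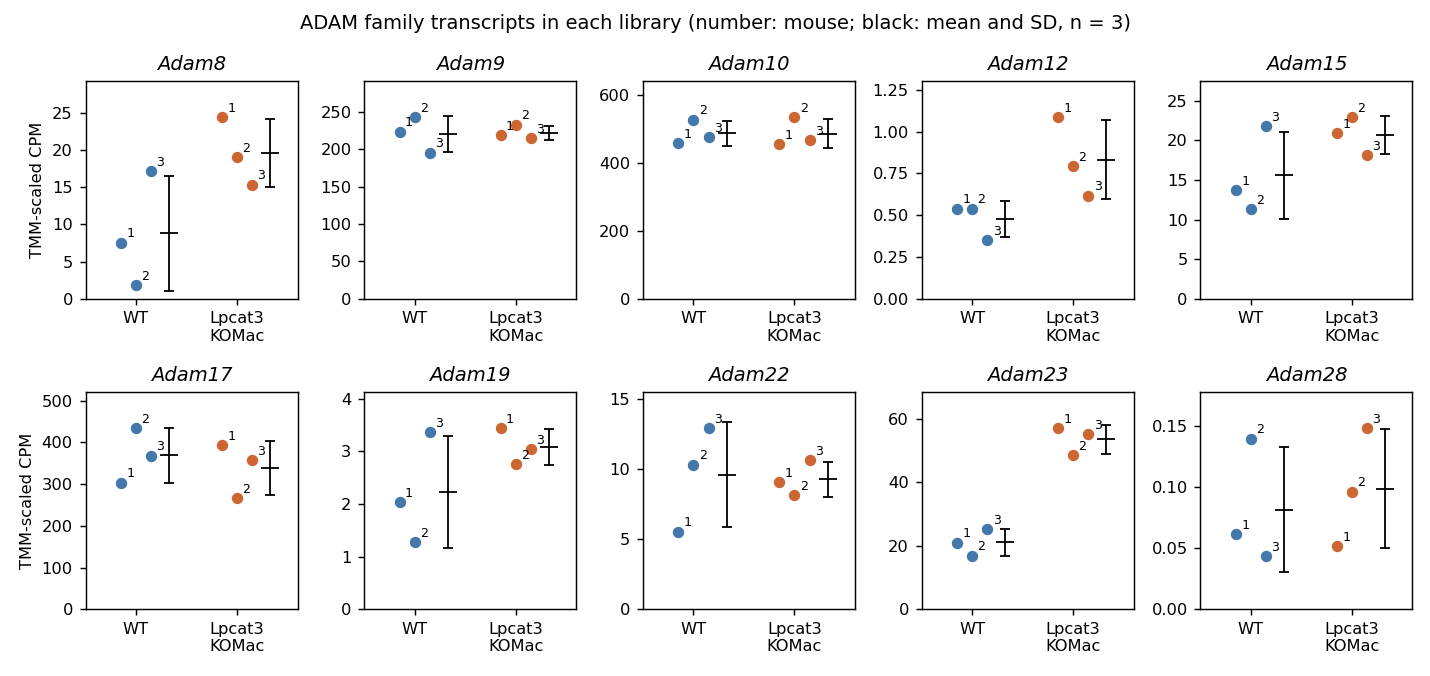
Level of each ADAM member in CPM (linear axis from 0, one scale per panel) in the 3 WT and 3 Lpcat3 KOMac libraries, with a point and number for each mouse (WT blue, Lpcat3 KOMac orange) and a black bar for the mean and SD. *Adam23* separates the genotypes, with 16.9 to 25.2 CPM in WT and 48.5 to 57.1 CPM in Lpcat3 KOMac mice, whereas *Adam9*, *Adam10*, *Adam17* and *Adam22* overlap.

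The groups overlapped for *Adam22*, the closest relative in sequence, which also lacks the zinc motif. It had 5.54, 10.3 and 12.9 CPM in WT mice 1 to 3 and 9.06, 8.14 and 10.6 CPM in *Lpcat3* KOMac mice 1 to 3. The mutant libraries lay within the WT range, and the log2 fold change was -0.05 (SE 0.32, 95% confidence interval -0.85 to 0.75). *Adam23* had 3.79, 1.64 and 1.95 counts per *Adam22* count in WT mice 1 to 3, against 6.3, 5.96 and 5.18 in *Lpcat3* KOMac mice 1 to 3. This ratio uses the *Adam23* contrast and is a description as well. *Adam11*, the remaining relative known to bind LGI proteins, was at 2.76, 0.30 and 0.35 CPM in WT and 2.24, 2.14 and 1.61 CPM in *Lpcat3* KOMac mice 1 to 3, with overlapping groups.

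None of the 8 other members tested was called different between genotypes by edgeR's quasi-likelihood test at a Benjamini-Hochberg adjusted p under 0.05. The background was equal, with 0% of all 16134 genes called. The deleted gene *Lpcat3* (log2 fold change -1.56) and *Lyz2* (-1.42) were thus not called either. Both stood at an adjusted p of 0.9999 in edgeR's quasi-likelihood test. At an unadjusted p under 0.05 the count was also 0 of the 8, where 2.64% of all genes (426) passed. The latter count depended on the libraries, with 2028 genes without WT mouse 1, 227 without WT mouse 2, 179 without *Lpcat3* KOMac mouse 1 and 245 without *Lpcat3* KOMac mouse 2. Without WT mouse 3, *Adam8*, *Adam15* and *Adam19* had an unadjusted p under 0.05 in edgeR, and *Adam12* did so without *Lpcat3* KOMac mouse 3, with total counts alone, with at least 10 counts in every library and in DESeq2, none of them after adjustment. DESeq2 called 12 genes (0.0744% of those tested) and none of these 8, and limma-voom called 0 genes. Among the 8 members 5 had a log2 fold change above 0 and 3 below 0, with a median of 0.21, beside 40.1% above 0 and a median of -0.04 over all genes, and the sign of *Adam9*, *Adam10*, *Adam17* and *Adam22*, all near 0, changed between fits. A test that missed its threshold with 3 mice per genotype does not show equal levels, so the intervals are given with the members.

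**Figure D2:**
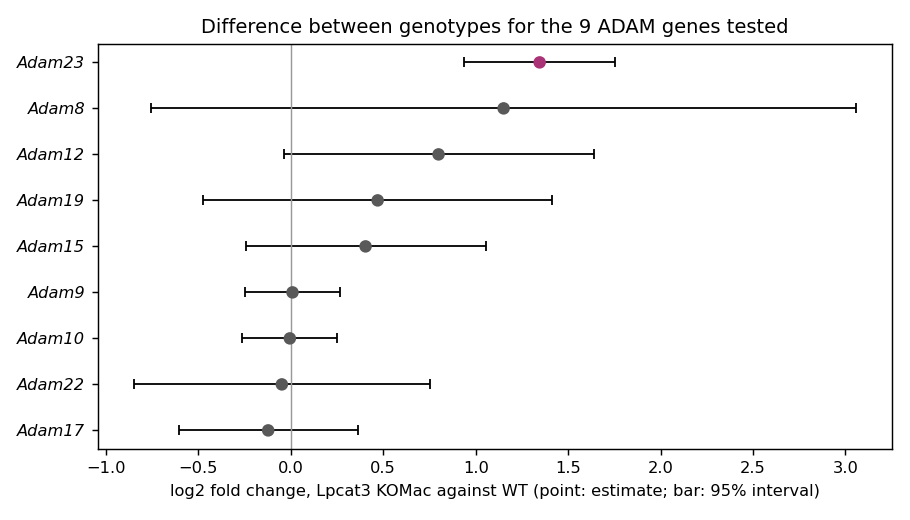
Log2 fold change of Lpcat3 KOMac against WT for the 9 ADAM members that passed the count filter, with points at the edgeR estimate and lines for the 95% confidence interval (n = 3 mice per genotype). The intervals of *Adam9* and *Adam10* are narrow around 0, that of *Adam8* runs from -0.76 to 3.06, and *Adam23* (interval 0.94 to 1.76) was picked on this contrast.

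The 3 members with the highest levels per kb of exon were the sheddases *Adam10*, *Adam17* and *Adam9*. *Adam10*, which sheds Notch receptors, cadherins and many other proteins, had 458, 528 and 476 CPM in WT mice 1 to 3 and 455, 534 and 468 CPM in *Lpcat3* KOMac mice 1 to 3. The ranges of the genotypes overlapped almost entirely, with means of 487 ± 36.3 and 485.5 ± 42.8 CPM. The log2 fold change was -0.01 (SE 0.10) and its 95% confidence interval ran from -0.26 to 0.25.

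*Adam17*, the enzyme that releases tumor necrosis factor (TNF) and its receptors, had 304, 434 and 368 CPM in WT mice 1 to 3. It had 393, 266 and 357 CPM in *Lpcat3* KOMac mice 1 to 3. The lowest of the 6 values was in mutant mouse 2 and the highest in WT mouse 2, but the groups overlapped, and the log2 fold change was -0.12 (SE 0.20, interval -0.61 to 0.36). *Adam17* shares 97 exonic bases with *Iah1* on the opposite strand, a gene with up to 2329 counts. The counts of *Adam17* are uncertain over these bases, and the direction of any error is not known.

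*Adam9*, a widely expressed sheddase, had 224, 243 and 196 CPM in WT mice 1 to 3 and 219, 233 and 215 CPM in *Lpcat3* KOMac mice 1 to 3. The mutant values lay within the WT range. The log2 fold change was 0.01 (SE 0.10, interval -0.25 to 0.27).

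*Adam8*, a sheddase induced in activated myeloid cells, varied most between mice. It had 7.53, 1.82 and 17.2 CPM in WT mice 1 to 3, and 24.4, 19.1 and 15.3 CPM in *Lpcat3* KOMac mice 1 to 3. WT mouse 2 was far below the other libraries, and WT mouse 3 lay above mutant mouse 3, so the groups overlapped. The means were 8.84 ± 7.76 and 19.6 ± 4.57 CPM, with a log2 fold change of 1.15 (SE 0.76, interval -0.76 to 3.06), which did not pass the test (edgeR's quasi-likelihood test, Benjamini-Hochberg adjusted p = 0.9999). Without WT mouse 2 the log2 fold change was 0.67, and without WT mouse 3 it was 2.07.

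*Adam15* and *Adam19*, which encode active members of the family, were also lowest in WT mouse 2. *Adam15* had 13.7, 11.3 and 21.8 CPM in WT and 20.9, 22.9 and 18.1 CPM in *Lpcat3* KOMac mice 1 to 3. *Adam19* had 2.03, 1.28 and 3.37 CPM in WT and 3.44, 2.76 and 3.04 CPM in *Lpcat3* KOMac mice 1 to 3. In both genes WT mouse 3 lay among the mutant values, so the groups overlapped. The log2 fold change of *Adam15* was 0.40 (SE 0.26), and it ranged from 0.22 to 0.72 when single mice were left out, the highest being without WT mouse 3. *Adam15* shares 1263 exonic bases with *4731419I09Rik* on the opposite strand, a gene with at most 25 counts in any library. For *Adam19* the log2 fold change was 0.47 (SE 0.38), with 0.19 without WT mouse 2 and 0.89 without WT mouse 3.

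*Adam12*, a member typical of mesenchymal cells and muscle, was near the limit of detection but separated the genotypes. WT mice 1 to 3 had 35, 27 and 16 counts (0.54, 0.54 and 0.35 CPM) and *Lpcat3* KOMac mice 1 to 3 had 63, 41 and 29 counts (1.08, 0.79 and 0.62 CPM). Every mutant library was above every WT library, as for 2.29% of all genes tested, and *Adam12* was the only one of the 8 other members with such a gap. The log2 fold change was 0.80 (SE 0.34, interval -0.04 to 1.64). The two-sided exact permutation p was 0.1, and with 3 mice in each group no lower p can be had. *Adam28*, known from lymphocytes and epididymis, had between 2 and 7 counts in every library and was not tested.

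WT mouse 2 was the lowest of the 6 libraries for 4 members, *Adam8*, *Adam15*, *Adam19* and *Adam23*. This was so for 2653 of the 16134 genes tested. The same library had the lowest summed level of 10 stellate and mesenchymal cell markers, at 103 CPM beside 183 to 317 CPM in the other 5 libraries, and the highest of 6 B cell markers, at 282 CPM beside 32.3 to 146 CPM. WT mouse 2 was also lowest for the endothelial genes *Kdr*, *Tek*, *Ptprb*, *Gpr182*, *Oit3*, *Lyve1* and *Clec4g*, but not for *Cdh5*, *Stab2* and *Pecam1*. The part of such markers in the values of these members was not tested. *Adam23* remained above the WT libraries without this mouse, with a log2 fold change of 1.21.

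To compare levels between genes, CPM were divided by the exonic length of each gene in kilobases. On this scale *Adam10* led in WT mice with 99.2 ± 7.39 CPM per kb, followed by *Adam9* with 53.6 ± 5.78 and *Adam17* with 51.5 ± 9.12 CPM per kb (SD, n = 3). *Adam15* had 2.54 ± 0.90, *Adam8* 1.91 ± 1.67, *Adam23* 1.18 ± 0.23 and *Adam22* 0.67 ± 0.26 CPM per kb. *Adam19* (0.31 ± 0.15), *Adam12* (0.05 ± 0.01) and *Adam28* (0.02 ± 0.01 CPM per kb) came last. Thus *Adam23* was the sixth of the 10 members, far below the 3 main sheddases.

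The order in *Lpcat3* KOMac mice differed at 1 pair of places, where *Adam8* and *Adam15* changed positions. *Adam10* had 98.8 ± 8.72, *Adam9* 54.0 ± 2.31 and *Adam17* 47.3 ± 9.12 CPM per kb. *Adam8* followed with 4.23 ± 0.99, *Adam15* with 3.36 ± 0.39 and *Adam23* with 2.99 ± 0.25 CPM per kb. *Adam22* (0.65 ± 0.09), *Adam19* (0.43 ± 0.05), *Adam12* (0.08 ± 0.02) and *Adam28* (0.03 ± 0.01 CPM per kb) closed the order again.

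Several neighbours in these orders lay within the sum of their SDs and had no order beyond their spread. In WT mice these were *Adam9* and *Adam17*, *Adam15* and *Adam8*, *Adam8* and *Adam23*, *Adam22* and *Adam19*, and *Adam12* and *Adam28*. In *Lpcat3* KOMac mice they were *Adam9* and *Adam17*, *Adam8* and *Adam15*, and *Adam15* and *Adam23*. The exonic length of *Adam23* pools all annotated transcripts. With the length of the transcript that has the longest coding sequence (6426 bases for *Adam23*), a choice added after the values were seen, *Adam23* had 3.28 ± 0.64 CPM per kb in WT and 8.33 ± 0.70 in *Lpcat3* KOMac mice and moved to the fifth and the fourth place.

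**Figure D3:**
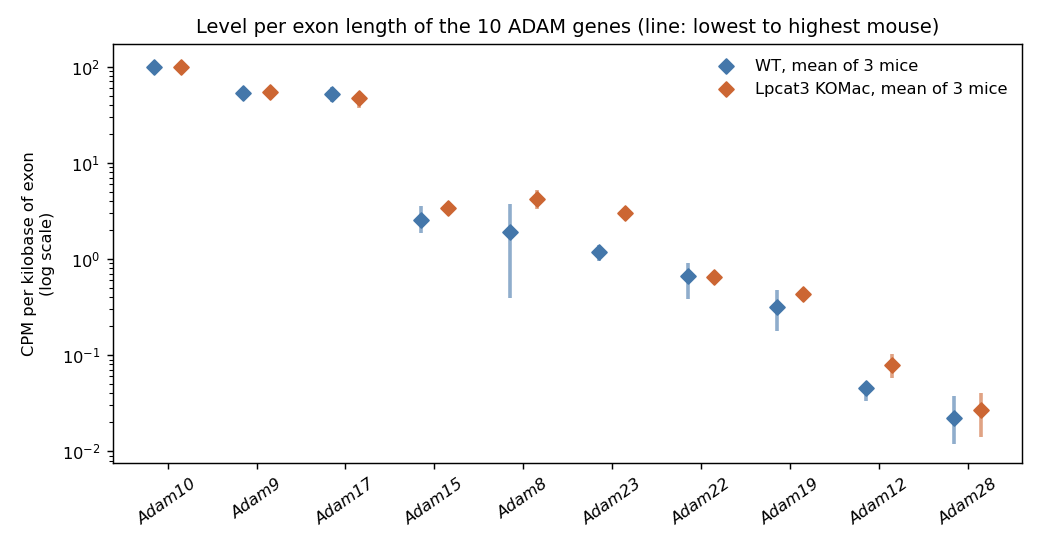
Level of each ADAM member per kb of exon (log axis, CPM per kb), with blue diamonds for the WT mean, orange diamonds for the Lpcat3 KOMac mean, and lines from the lowest to the highest of 3 mice. *Adam10*, *Adam9* and *Adam17* stand at 47.3 CPM per kb or more in the mean of both genotypes, and *Adam23* moves from 1.18 to 2.99 CPM per kb.

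Members without the zinc motif were a small part of ADAM RNA. Summed per kb of exon, *Adam22* and *Adam23* made up 0.80%, 0.72% and 1.12% of the 10 members in WT mice 1 to 3. They made up 1.79%, 1.53% and 1.84% in *Lpcat3* KOMac mice 1 to 3. The share of *Adam23* alone was 0.60%, 0.41% and 0.68% in WT and 1.49%, 1.26% and 1.48% in *Lpcat3* KOMac mice. The 8 members with the motif summed to 194, 230 and 204 CPM per kb in WT and 210, 211 and 204 CPM per kb in *Lpcat3* KOMac mice, with overlapping groups. With the length of the transcript with the longest coding sequence the share of *Adam23* was larger, at 1.39%, 0.94% and 1.55% in WT and 3.33%, 2.94% and 3.34% in *Lpcat3* KOMac mice 1 to 3. The shares of *Adam23* rest on the contrast by which it was picked and were not tested.

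The 5 genes whose pattern over the 6 libraries was most like that of *Adam23* were *Sox4*, *A030001D20Rik*, *Stox2*, *Ptprn* and *Rtn4rl2*. Likeness was measured as the root mean square difference between log2 CPM values after each gene was centred on its own mean. *Sox4*, a transcription factor gene of progenitor cells, had the smallest difference, 0.17, with 1.34, 1.16 and 1.53 CPM in WT and 3.00, 2.56 and 2.76 CPM in *Lpcat3* KOMac mice 1 to 3. The others differed by 0.23 to 0.27. *Ptprn* encodes a protein of secretory granules and *Rtn4rl2* a receptor of the neuronal surface. *Ptprn* had only 0.11, 0.04 and 0.11 CPM in WT and 0.40, 0.21 and 0.255 CPM in *Lpcat3* KOMac mice 1 to 3. *Rtn4rl2* had 0.12, 0.08 and 0.13 CPM in WT and 0.28, 0.33 and 0.21 CPM in *Lpcat3* KOMac mice 1 to 3. Both were near the limit of detection in WT and passed the count filter only through the mutant libraries. All 5 genes follow the contrast by which *Adam23* was picked, and the likeness is a description.

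None of the tested genes around *Adam23* passed the test, which 0% of all genes passed. Of 51 annotated genes within 1 Mb on each side, 14 passed the filter. None of the 14 had an unadjusted p under 0.05 in edgeR, beside 2.64% of all genes. Genes named here were chosen after their values were seen. The log2 fold changes lay between -0.13 (*Eef1b2*, a translation elongation factor subunit) and 0.72 (*Nrp2*, a semaphorin and VEGF coreceptor, SE 0.35). Of the 14, 10 were above 0, beside 40.1% of all genes. *Fastkd2*, a mitochondrial RNA-binding protein gene 134338 bases away, had a log2 fold change of 0.02 (SE 0.12).

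The cell types that a liver F4/80 selection could hold were checked by their markers. The macrophage list was lower in the mutant libraries for 5 of its 17 genes at an unadjusted p under 0.05, among them *Clec4f* (log2 fold change -0.44), *Folr2* (-0.45) and *C1qa* (-0.31), beside 1.57% of all genes in this direction. Its summed level was 42040 to 57750 CPM in WT and 33590 to 44730 CPM in *Lpcat3* KOMac mice. The endothelial list had 4 of 10 genes higher at an unadjusted p under 0.05 (*Kdr*, *Tek*, *Ptprb* and *Gpr182*), beside 1.07% of all genes. Its sum overlapped, at 1670 to 2201 and 1787 to 2200 CPM, and most of it was *Cdh5*, *Stab2* and *Pecam1*. Their log2 fold changes were -0.22, 0.02 and -0.24. All other genes of this list lay between 0.49 (*Clec4g*) and 0.86 (*Lyve1*). In bulk RNA, fewer cells of a type and less RNA per cell cannot be told apart. The part of these lists in the *Adam23* level was not tested.

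Of 11 lists, the cholangiocyte list alone had sums that did not overlap, at 2.83 to 15.2 CPM in WT and 19.0 to 45.3 CPM in *Lpcat3* KOMac mice. Nearly all of this was *Spp1*, the osteopontin gene, which activated macrophages also express (11.9, 2.52 and 14.5 CPM in WT and 39.4, 44.1 and 18.1 CPM in *Lpcat3* KOMac mice 1 to 3). Its part in the *Adam23* level was not tested. The neuron and glia list, relevant because *Adam23* is best known there, summed to 12.1 to 16.3 CPM in WT and 8.93 to 14.1 CPM in *Lpcat3* KOMac mice. Its defining genes *Snap25* and *Sox10* had 0 counts in every library, and *S100b* had at most 2. The groups overlapped. Most of the sum was *Rbfox3*, at 5.98 to 14.6 CPM, and in WT mouse 1 also *Syt1*, at 6.14 CPM. The part of such cells in the *Adam23* level was not tested.

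The sums of the immune lists overlapped as well, while some of their genes were higher in the mutant libraries at an unadjusted p under 0.05, which 1.07% of all genes were. Monocyte markers summed to 96.6 to 162 CPM in WT and 92.6 to 166 CPM in *Lpcat3* KOMac mice, and neutrophil markers to 81.7 to 159 and 82.8 to 144 CPM, with *Ly6g* at 3 counts or fewer in all libraries. Of the 6 monocyte genes 2 were in this group, *Chil3*, known from Ly6C-high monocytes, with 1.12, 1.04 and 2.12 CPM in WT and 8.77, 2.43 and 2.70 CPM in *Lpcat3* KOMac mice 1 to 3 (log2 fold change 1.70, SE 0.62), and *F13a1* (1.05, SE 0.40). Of the neutrophil list it was *S100a8* (log2 fold change 0.99, SE 0.36) and of the T and NK cell list *Cd3d* (1.11, SE 0.37, from 5 to 13 counts). The groups did not overlap for *Chil3*, *S100a8* and *Cd3d*, as for 2.29% of all genes tested in this direction. None of the 4 genes was called after adjustment, and they are named after their values were seen. The part of these cells in the *Adam23* level was not tested. Dendritic cell markers summed to 230.1 to 298 and 198 to 235 CPM, and T and NK cell markers to 1.56 to 3.21 and 2.17 to 3.72 CPM.

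The LGI proteins, the secreted ligands of ADAM11, ADAM22 and ADAM23, were hardly expressed. *Lgi1* had 0 counts in all 6 libraries, where 3 counts was taken as the floor, and *Lgi2* and *Lgi3* had at most 5 and 2 counts. *Lgi4*, the one member of 4 that passed the filter, had 19, 2 and 10 counts in WT and 17, 7 and 14 counts in *Lpcat3* KOMac mice 1 to 3, with overlapping groups and a log2 fold change of 0.37 (SE 0.70). Ligand from other cells was not measured here.

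Integrins that bind ADAM disintegrin domains were present throughout. All 9 listed genes passed the filter, 5 with a log2 fold change above 0 and 4 below, with a median of 0.07. Over all genes 40.1% were above 0. None of the 9 had an unadjusted p under 0.05 in edgeR, beside 2.64% of all genes. *Itgb7*, which pairs with the alpha 4 subunit in leukocyte homing and was chosen after its values were seen, had 29.3, 42.6 and 34.7 CPM in WT mice 1 to 3. It had 21.8, 25.0 and 9.35 CPM in *Lpcat3* KOMac mice 1 to 3. All mutant libraries lay below all WT libraries, as for 5.2% of all genes tested, and the log2 fold change was -0.92 (SE 0.38), which did not pass the test.

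**Figure D4:**
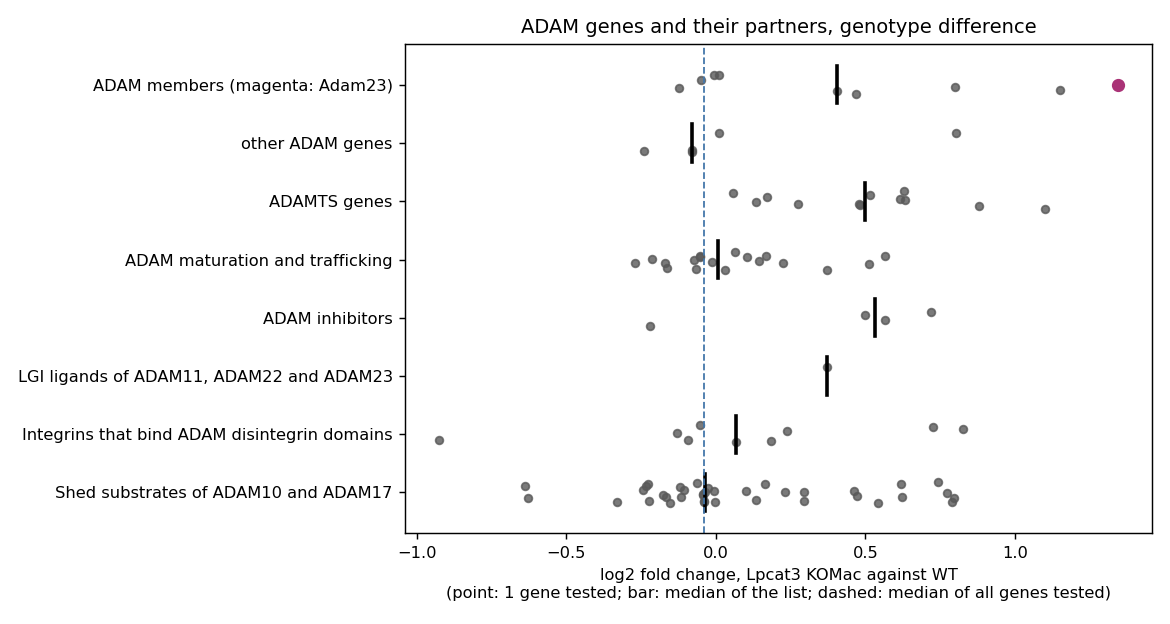
Log2 fold change of Lpcat3 KOMac against WT for the tested genes of each list around the ADAM family, with a point per gene (*Adam23* in magenta), a black bar at the median of the list and a dashed line at the median of all genes tested. All 12 ADAMTS genes lie above 0 (median 0.50; 9 without WT mouse 2), and the substrate list centres near 0 (median -0.04, 37 genes).

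Of the genes that mature and carry ADAM proteins to the surface none was called, where 0% of all genes were. Of 20 listed, 18 passed the filter, 9 above and 9 below 0 with a median of 0.01, beside 40.1% above 0 over all genes. None had an unadjusted p under 0.05 in edgeR, beside 2.64% of all genes. *Furin*, the convertase that removes the inhibitory prodomain, had 188, 134 and 139 CPM in WT and 146, 176 and 149 CPM in *Lpcat3* KOMac mice 1 to 3. *Rhbdf2*, the iRhom2 gene whose product carries ADAM17 to the surface of macrophages, had 69.9, 94.3 and 103 CPM in WT and 102, 81.1 and 104 CPM in *Lpcat3* KOMac mice 1 to 3. In both genes the groups overlapped, with log2 fold changes of 0.03 (SE 0.16) and 0.10 (SE 0.18). *Rhbdf1*, the iRhom1 gene, and *Frmd8*, which stabilizes iRhoms, had log2 fold changes of 0.22 (SE 0.18) and 0.06 (SE 0.11).

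The tetraspanins *Tspan14* and *Tspan15*, partners of ADAM10 that steer its traffic and choice of substrate, did not pass the test either, which 0% of all genes passed. *Tspan14* had 121, 126 and 127 CPM in WT and 113, 114 and 129 CPM in *Lpcat3* KOMac mice 1 to 3, a log2 fold change of -0.07 (SE 0.08). *Tspan15* had 152, 214 and 169 CPM in WT and 179, 221 and 202 CPM in *Lpcat3* KOMac mice 1 to 3, a log2 fold change of 0.17 (SE 0.16). Neither gap exceeded the spread between mice. *Tspan5*, *Tspan17* and *Tspan33*, further partners of ADAM10, had log2 fold changes of 0.51 (SE 0.36), -0.21 (SE 0.25) and -0.16 (SE 0.74), and *Tspan10*, at 1 to 9 counts, was not tested.

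Among the inhibitors, 4 of 5 genes passed the filter, 3 above and 1 below 0, beside 40.1% above 0 over all genes. None of the 4 had an unadjusted p under 0.05 in edgeR, beside 2.64% of all genes. *Timp3*, the inhibitor with the broadest action on ADAM proteases, had 19.8, 11.5 and 11.5 CPM in WT and 29.6, 30.2 and 10.5 CPM in *Lpcat3* KOMac mice 1 to 3. Mutant mice 1 and 2 were above all others and mutant mouse 3 was the lowest, so the groups overlapped, with a log2 fold change of 0.72 (SE 0.46). *Timp2*, an inhibitor of matrix metalloproteinases, was at 134 to 245 CPM over the 6 libraries, with a log2 fold change of -0.22 (SE 0.24). *Timp1* was at 0.18 to 0.62 CPM with a log2 fold change of 0.50 (SE 0.42), and *Timp4*, at 1 to 3 counts, was not tested. *Reck*, a membrane-anchored inhibitor, was at 1.08, 0.60 and 0.81 CPM in WT and 1.14, 1.41 and 1.15 CPM in *Lpcat3* KOMac mice 1 to 3. Its groups did not overlap, as for 2.29% of all genes tested in this direction. The log2 fold change of 0.57 (SE 0.30) did not pass the test.

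Substrates of ADAM10 and ADAM17 were measured as RNA, which says nothing of their shedding, and none was called. Of 40 listed, 37 passed the filter, 15 above and 22 below 0 with a median of -0.04, beside 40.1% above 0 over all genes. Of the 37, 4 had an unadjusted p under 0.05 in edgeR, beside 2.64% of all genes. *Il6ra*, the interleukin 6 receptor whose soluble form is made by shedding, had 231, 254 and 232 CPM in WT and 212, 185 and 212 CPM in *Lpcat3* KOMac mice 1 to 3. All mutant libraries lay below all WT libraries, as for 5.2% of all genes tested, with a log2 fold change of -0.23 (SE 0.09). *Kdr* (0.79, SE 0.27) and *Tek* (0.74, SE 0.30), both endothelial receptors and part of the endothelial list above, and *Cdh1*, the E-cadherin gene (0.62, SE 0.25), had positive log2 fold changes, *Tek* being named after its values were seen. After Benjamini-Hochberg adjustment of edgeR's quasi-likelihood test all 4 stood at an adjusted p of 0.9999.

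The best known substrates of macrophages did not pass the test, which 0% of all genes passed. *Tnf* had 6.76, 21.2 and 19.7 CPM in WT and 17.2, 11.05 and 15.6 CPM in *Lpcat3* KOMac mice 1 to 3, with overlapping groups. *Csf1r*, the receptor on which macrophages depend, had 3984, 6398 and 4383 CPM in WT and 4366, 3882 and 4381 CPM in *Lpcat3* KOMac mice 1 to 3. *Trem2*, a lipid receptor of macrophages, had 85.5, 55.2 and 120 CPM in WT and 107, 116 and 138 CPM in *Lpcat3* KOMac mice 1 to 3. Their log2 fold changes were -0.12 (SE 0.45), -0.23 (SE 0.20) and 0.47 (SE 0.29), and in each of them the groups overlapped. The TNF receptors *Tnfrsf1a* (-0.06, SE 0.07) and *Tnfrsf1b* (-0.11, SE 0.15) and the efferocytosis receptor *Mertk* (-0.04, SE 0.11) had log2 fold changes close to 0.

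The remaining ADAM genes were few in these cells. Of 24 listed, 5 passed the filter, 2 above and 3 below 0, beside 40.1% above 0 over all genes. None of the 5 had an unadjusted p under 0.05 in edgeR, beside 2.64% of all genes. *Adamdec1*, a soluble member of macrophages and dendritic cells, had 175, 249.5 and 211 CPM in WT and 215, 209.5 and 215 CPM in *Lpcat3* KOMac mice 1 to 3. The mutant values lay within the WT range, and the log2 fold change was 0.01 (SE 0.14). *Adam33*, a mesenchymal member, had 6.05, 11.5 and 14.7 CPM in WT and 10.8, 4.92 and 11.6 CPM in *Lpcat3* KOMac mice 1 to 3, again with overlap. *Adam1a* and *Adam4* (log2 fold changes -0.08 and -0.08) completed the 5 with *Adam11*.

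The ADAMTS genes, secreted relatives that cut matrix proteoglycans and procollagen, leaned to higher values in the mutant libraries. Of 19 listed, 12 passed the filter and all 12 had a log2 fold change above 0, beside 40.1% of all genes, with a median of 0.50. Only *Adamts1*, an aggrecan- and versican-cutting member, had an unadjusted p under 0.05, and the groups overlapped in all 12. *Adamts1* had 7.87, 4.09 and 7.19 CPM in WT and 13.3, 14.1 and 7.80 CPM in *Lpcat3* KOMac mice 1 to 3, a log2 fold change of 0.88 (SE 0.34), and its adjusted p was 0.9999 in edgeR's quasi-likelihood test.

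WT mouse 2 had the lowest level of the 6 libraries in 11 of these 12 ADAMTS genes, and it was the library with the lowest stellate and mesenchymal marker sum. It was also lowest for the endothelial genes *Kdr*, *Tek*, *Ptprb*, *Gpr182*, *Oit3*, *Lyve1* and *Clec4g*, but not for *Cdh5*, *Stab2* and *Pecam1*. The log2 fold changes ran from 0.06 (*Adamts10*) and 0.13 (*Adamts5*) through 0.17 (*Adamts6*), 0.27 (*Adamts14*), 0.48 (*Adamts12* and *Adamts13*) and 0.52 (*Adamts2*) to 0.61 (*Adamts15*), 0.63 (*Adamts7* and *Adamts9*) and 1.10 (*Adamts4*). Without WT mouse 2, 9 of the 12 were above 0 and the median fell to 0.23. Without *Lpcat3* KOMac mouse 2, which had the highest stellate and mesenchymal marker sum, 11 were above 0 and the median was 0.32. The part of the mesenchymal and endothelial markers in these values was not tested.

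The *Adam23* difference was present under each alternative fit. Its log2 fold change lay between 1.21 and 1.496 when single mice were left out, the lowest without WT mouse 2 and the highest without WT mouse 3. It lay between 1.28 and 1.44 under the other normalizations, filters, tools and covariates. These fits use the same mice and the same contrast as the choice of the gene, and they show only how far the estimate moves.

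**Figure D5:**
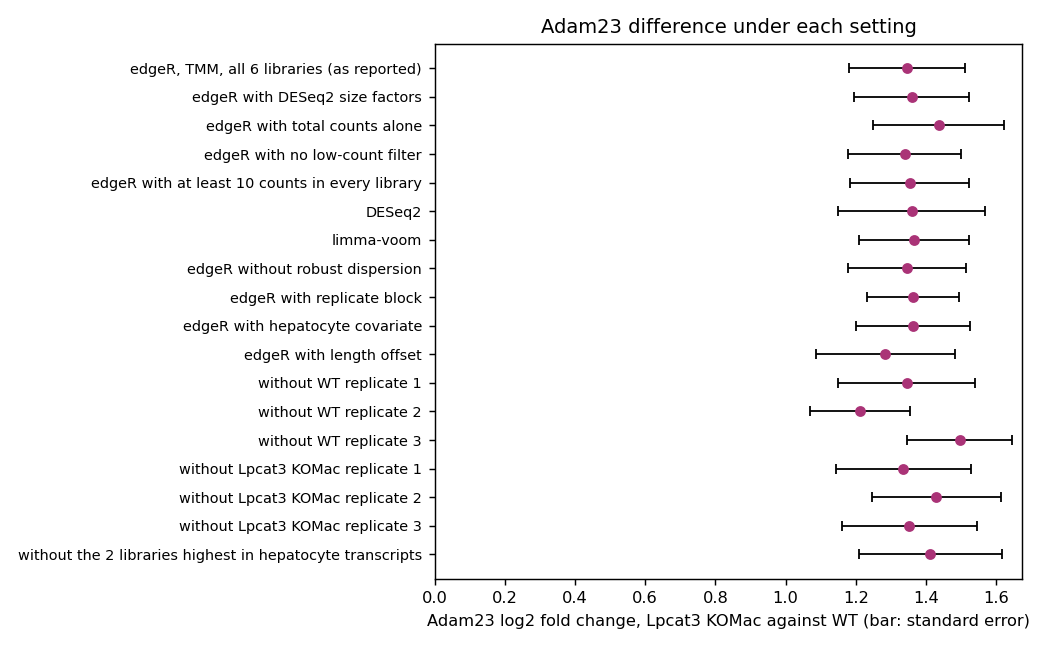
Log2 fold change of *Adam23* in Lpcat3 KOMac against WT under each alternative fit, with points at the estimate, bars for the standard error, and the reported value of 1.35 in the top row. All estimates lie between 1.21 and 1.496.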

How the data were processed

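RNA of F4/80-positive liver cells from 3 WT and 3 *Lpcat3* KOMac mice was sequenced from separate libraries. The authors deposited raw read counts per gene for 49315 genes. The submitters' processing notes name Trimmomatic 0.36, STAR 2.5.2b, featureCounts of Subread 1.5.2 and GRCm38. The strand setting and the handling of reads with several matches are not given in the sources used here, so counts of genes that overlap on opposite strands are uncertain. Genotype came from the sample labels. Total counts were 44954224 to 71392812 per library, and the detection floor was set at 3 counts. These limits cover counting error only.

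Gene symbols, lengths and coding sequences came from GENCODE M21, which holds 48970 of the gene identifiers, using for each member the transcript with the longest complete coding sequence. Translated sequences were aligned with mafft 7.526. Genes were tested with edgeR 4.0.16 in R 4.3.3 (TMM, default filter with minimum count 10, quasi-likelihood test with robust dispersion, genotype as the only term), with Benjamini-Hochberg adjustment over the 16134 genes tested. An adjusted p under 0.05 made a call. P-values measure the spread between mice. Log2 CPM for likeness used a prior count of 2. Named genes were all members, the other ADAM and ADAMTS genes that passed the filter, up to 3 genes of each list with the smallest unadjusted p under 0.05, a fixed set of ligands, inhibitors, carriers and substrates whatever their values, and the 5 tested genes most like *Adam23*. The members and lists were chosen with earlier results of these data known. The alternatives were limma-voom (limma 3.58.1), DESeq2 1.42.0, its size factors in edgeR, scaling by total counts, a filter of 10 counts in each library or none, dispersion without the robust option, a replicate block, a hepatocyte covariate, a gene length offset (lowess span 0.3), other gene lengths, and leaving out libraries. The code of the fits was checked on simulated counts with the same dispersion for all genes. These counts lack the range of hepatocyte RNA of the real libraries, so the check does not show the power of the fits here.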

Additional observations from a re-analysis of the deposited data

How the results depend on the processing

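With 3 mice per genotype the intervals of the low members are wide, counts do not separate overlapping genes on opposite strands, and the causes of the changes below were not tested. The log2 fold change of *Adam23* kept its direction under all 17 alternatives, at 1.21 to 1.496 when single mice were left out. Leaving out mice gave 0 genes called over all genes, 0 members and 0 other pathway genes, and these counts were 0 in the other fits too, with one exception. DESeq2 called 12 genes over all genes, and the 1 member among them was *Adam23*. That gene was picked on this contrast, so its call belongs to the description and is no test. With the length of the transcript with the longest coding sequence, a choice added after seeing the data, 12 of the 20 places in the order of members were kept, and with TPM 20 were. With a prior count of 0.5, 4 of the 5 genes most like *Adam23* were kept.

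Log2 fold changes near 0 changed sign without passing any threshold. For *Adam10* the value was 0.0080 with DESeq2 size factors, 0.086 with total counts, 0.0031 with at least 10 counts in every library, 0.0080 in DESeq2 and 0.0028 with the hepatocyte covariate. For *Adam22* it was 0.025 with total counts, 0.084 in limma-voom and 0.21 with the hepatocyte covariate. For *Adam9* it was -0.0054 with the hepatocyte covariate and -0.015 without the libraries of WT mouse 1 and *Lpcat3* KOMac mouse 2, a choice added after seeing the data. Leaving out single mice gave -0.063 to 0.079 for *Adam10*, -0.24 to 0.042 for *Adam17*, -0.33 to 0.23 for *Adam22*, -0.071 to 0.083 for *Adam9*, 0.67 to 2.07 for *Adam8*, 0.60 to 1.00 for *Adam12*, 0.22 to 0.72 for *Adam15* and 0.19 to 0.89 for *Adam19*. It also gave 9 to 12 of the 12 ADAMTS genes above 0.

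The labels name no litter or day shared by mice with the same replicate number. Same-numbered mice correlated at -0.30, -0.60 and 0.36 in their deviations from the group means. Differently numbered mice correlated at -0.58 to 0.67, the highest being WT mouse 1 with *Lpcat3* KOMac mouse 2, both rich in hepatocyte RNA. Such values cannot show whether mice were paired. With the replicate block *Adam23* had a log2 fold change of 1.36 and *Adam22* one of 0.024, 0 genes were called, and 138 genes instead of 426 had an unadjusted p under 0.05. This number rose to 1477 with the hepatocyte covariate, to 2028 without WT mouse 1 and to 1767 without both hepatocyte-rich libraries. It was 179 to 543 when any other mouse was left out, and 318 to 526 in the remaining fits.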
